A study of Mus musculus with 8 samples.

Results

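The 10 genes Hamp, Hfe, Tfr2, Trf, Tfrc, Slc11a2, Fth1, Slc40a1, Cp and Atp7b carry out the handling of iron and copper. They were chosen by name, and all 10 could be tested on both array designs, among 28538 genes on one design and 19934 on the other. RNA was measured on 8 single-colour Agilent expression arrays, 2 in each of 4 groups. The study asked how bone marrow cells that take part in liver repair come to resemble hepatocytes.

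Lin- BM cells (arrays L3 and L4) were bone marrow cells of young adult female eGFP-transgenic C57Bl6/J mice, which express eGFP from the ubiquitin C promoter, after magnetic removal of cells bearing lineage antigens. BM-derived hepatocytes were isolated 1 month (B1 and B2) or 5 months (G1 and G3) after such cells were given to male hemophilia A mice, which carry a targeted F8 allele and whose livers had been injured with acetaminophen. They were separated from collagenase-perfused liver by low-speed centrifugation and by sorting for eGFP, and sorted cells were stained for albumin. Primary hepatocytes (H2 and H4) were the positive control, and their donor strain and any sorting were not given in the sources used here. The 2 arrays of a group were described as separate experiments, each on the pooled cells of several mice, so that p-values measured the spread between such pools and not that between single animals.

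Lin- BM cells and 1-month hepatocytes shared one slide, and primary and 5-month hepatocytes shared the other, which was of another design and was scanned on another day. Slide, design and scan day therefore cannot be told apart from group in any comparison across slides. The share of spots clearly above background lay between 47.7% and 58.6%, with none saturated. The upper quartile of intensity was 75.5 and 89.5 on the 1-month arrays and between 122 and 193 on the others, so that weak signals lay closest to background at 1 month. Of the hepatocyte markers with a probe, 7 of 7 rose from Lin- BM cells to 1 month. By the rule given below, 28.8% of all genes tested were called higher. Alb, Apoa1, Apob, Cps1 and Ttr were not well above background on either Lin- array. They passed the filter on dim probes only through the 1-month arrays, so that only a rise could be found for them.

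The liver sets the iron level of the body. Hepatocytes secrete hepcidin, the product of Hamp, which binds ferroportin (Slc40a1), the only known exporter of iron from cells, and causes its degradation. Hfe and transferrin receptor 2 (Tfr2) take part in sensing plasma iron upstream of Hamp, together with signalling by bone morphogenetic proteins (BMP), and interleukin-6 acts on the same gene through STAT3. Transferrin (Trf) carries iron in plasma, transferrin receptor 1 (Tfrc) takes it into cells, DMT1 (Slc11a2) moves it out of the endosome, and ferritin, of which Fth1 encodes the heavy chain, stores it. Erythroid precursors take up most of this iron. Ceruloplasmin (Cp) is a plasma copper protein that oxidizes iron, and Atp7b, the copper pump lost in Wilson disease, loads it with copper and sends excess copper into bile.

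The promoter of Hamp is shown because this gene had the largest change of the 10 and because its BMP and STAT elements are well described, beside that of its paralog Hamp2, which was added after its values were seen. Both stretches are the 150 bases before the RefSeq start on GRCm38, read on the minus strand, at chr7:30944030-30944179 for Hamp and chr7:30924182-30924331 for Hamp2. Capitals mark GGCGCC, the core of the BMP-responsive element, and TTCNNNGAA, the STAT motif.
Hamp: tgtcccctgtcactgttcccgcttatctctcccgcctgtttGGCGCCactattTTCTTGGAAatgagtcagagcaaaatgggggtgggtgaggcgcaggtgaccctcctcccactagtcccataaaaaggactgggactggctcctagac
Hamp2: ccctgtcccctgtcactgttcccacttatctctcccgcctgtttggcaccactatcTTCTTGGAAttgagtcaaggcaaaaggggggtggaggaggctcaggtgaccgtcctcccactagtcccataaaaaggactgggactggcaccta
In a global alignment the 2 stretches were identical at 135 of 153 columns (88.2%). Hamp held GGCGCC from 109 to 104 bases before the start and TTCNNNGAA from 97 to 89 bases before it. Hamp2 held TTCNNNGAA from 94 to 86 bases before its start, and in the place of GGCGCC it had GGCACC, which is G4A counted from 1 at the 5′ end of the motif. Both motifs read the same on either strand, and they did not overlap each other. Over the 250 bases before each of 32851 RefSeq starts, 9.59% of windows held GGCGCC and 7.02% held TTCNNNGAA. A RefSeq promoter was listed for 7 of the 10 genes. Among them, Hamp and 1 of the listed starts of Tfrc held GGCGCC, and Hamp alone held TTCNNNGAA. A match of letters describes the sequence and does not show binding.

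At 1 month, all 10 genes differed from Lin- BM cells by the brightest probe of each. Hamp, Trf and Cp, which encode secreted liver proteins, rose by 8.25 to 11.87 on the log2 scale, Hfe, Tfr2, Slc40a1, Atp7b and Fth1 rose by 1.27 to 4.05, and Tfrc and the brightest probe of Slc11a2 fell by 2.72 and 2.62. Genes counted as called had a limma adjusted p below 0.05 and a log2 change of more than 0.6 in size. By this rule 8 of 10 were higher and 2 lower, where Slc11a2 counts as lower by its brightest probe only. Its other probes went up, so that no direction can be given for it as a gene. Calls were made for 55.3% of all genes tested on this slide (28.8% higher and 26.5% lower), so that being called was common here. The groups did not overlap for any of the 10, as for 82.0% of all genes. The median change of the 10 was 2.98, and that of all genes was 0.07.

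Signals are given as log2 intensity minus the 75th percentile of the array, so that 0 is the signal of a probe at that percentile. They are compared for one probe between arrays of a slide and not between genes. Summed marker signals, given further below, add the linear signals of different genes, so that the brightest probes weigh most. Probes of identical sequence are also set side by side across slides, on a scale of their own. An array measures the pooled RNA of a sample, and fewer cells of a type and less RNA per cell cannot be told apart.

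**Figure D1:**
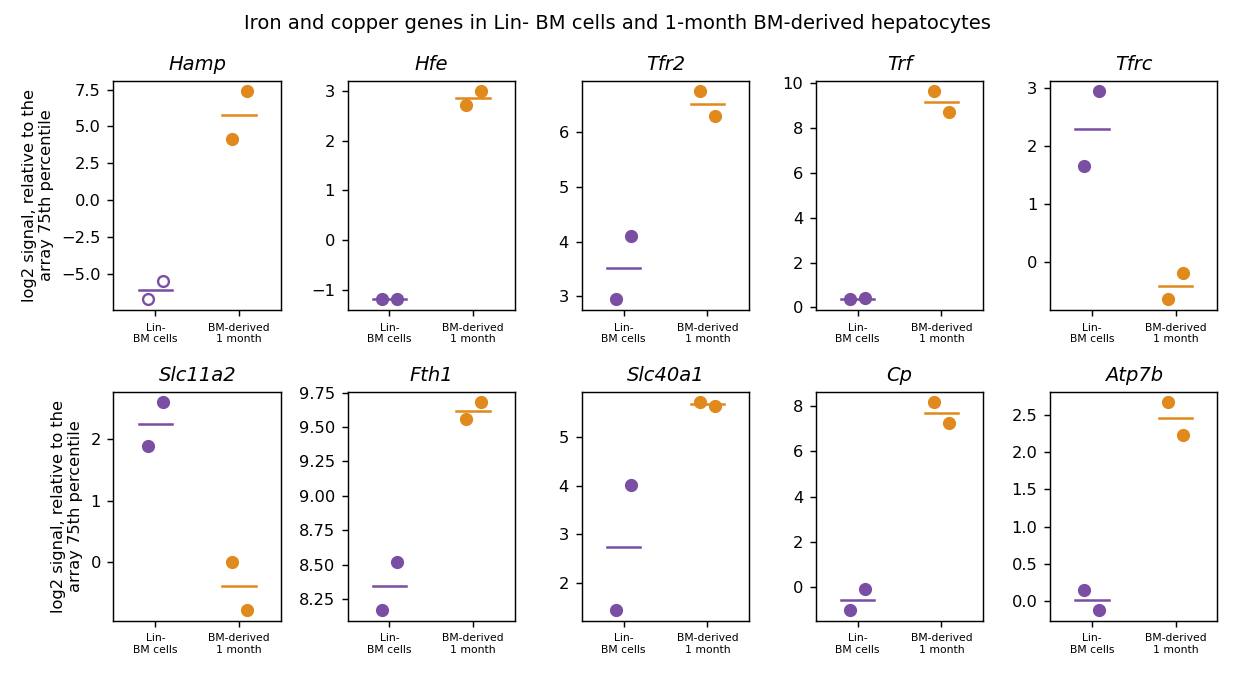
Log2 signal relative to the 75th percentile of the array for the 10 genes (1 panel each, own axis) in Lin- BM cells and 1-month BM-derived hepatocytes. Points are arrays (2 per group), open points were not well above background, and lines are group means. The groups do not overlap in any panel, with 8 genes higher and 2 lower at 1 month by the brightest probe of each. Other probes of Slc11a2 went up. Hamp was not well above background on either Lin- array.

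Hamp (chr7:30942368-30944029 on GRCm38, probe at chr7:31727490-31727549 on mm9) had log2 signals of -6.74 and -5.50 on the Lin- arrays, neither well above background, and of 4.14 and 7.37 at 1 month. The 1-month arrays were far above both Lin- arrays and lay wide apart from each other. Hamp passed the filter on dim probes only through the 1-month arrays, so that a fall could not have been found. The fitted change of 11.87 (SE 1.13, adjusted p = 0.00159) rested on a Lin- level that is only an upper limit, and against the background level Hamp was at least 1158-fold higher at 1 month. This bound was 378-fold without B2 and 3553-fold without B1. Hamp2, the paralog, gave -3.86 and -3.93 in Lin- BM cells and 4.84 and 6.32 at 1 month, a rise of 9.47 (SE 0.54, adjusted p = 4.02e-04). On both 1-month arrays Hamp and Hamp2 ranked alike, B1 below B2. Their 60-base probes were identical at no more than 42 of 60 positions in any ungapped register, and cross-hybridization between them was not measured.

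Both iron sensors rose. Hfe (chr13:23702034-23710854) was at -1.18 and -1.19 in Lin- BM cells and at 2.73 and 2.99 at 1 month, a rise of 4.05 (SE 0.27, adjusted p = 5.83e-04). Both pairs were tight compared with the gap between them. Tfr2 (chr5:137569822-137588081), which is expressed in hepatocytes and in erythroid precursors, was at 2.94 and 4.09 in Lin- BM cells and at 6.75 and 6.30 at 1 month. It rose by 3.01 (SE 0.47, adjusted p = 0.00618) from a level that was already well above background. Its probe was spotted 8 times on this design, with an SD over spots of 0.04 to 0.09 within an array.

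Trf (chr9:103208876-103230286) was at 0.36 and 0.42 in Lin- BM cells and at 9.61 and 8.70 at 1 month. The rise was 8.76 (SE 0.39, adjusted p = 2.19e-04), which is a 435-fold difference on the linear scale. Cp (chr3:19956933-20009750) was at -1.01 and -0.08 and then at 8.17 and 7.24, a rise of 8.25 (SE 0.49, adjusted p = 4.45e-04) or 304-fold. For both secreted proteins B1 lay above B2, the reverse of Hamp. A probe for another Cp transcript stayed between -4.95 and -3.60 on the 4 arrays and was well above background on 1 of them, and it was not tested.

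Of the uptake genes, Tfrc fell, and the probes of Slc11a2 conflicted. Tfrc (chr16:32608896-32632794) was at 1.67 and 2.95 in Lin- BM cells and at -0.65 and -0.18 at 1 month. It fell by 2.72 (SE 0.50, adjusted p = 0.0102), and without array B1 the adjusted p was 0.0585. Slc11a2 (chr15:100387898-100424209) had 3 probes on this design. Its brightest probe, P388737 (chr15:100218333-100218392 on mm9), was at 1.88 and 2.59 in Lin- BM cells and at 0.00 and -0.78 at 1 month, a fall of 2.62 (SE 0.42, adjusted p = 0.00678). Probe P254298 (chr15:100240516-100240575 on mm9) moved the other way, from -1.86 and -2.17 to -0.64 and 0.13. When each probe was tested on its own, it rose by 1.76 (SE 0.37, adjusted p = 0.0143). Probe P196476, designed on another transcript record, went from -2.17 and -0.11 to 0.75 and 0.11, a difference of 1.57 that was not called (adjusted p = 0.124). Each of the 3 probes separated the groups, one downward and the others upward. The mean of the probes gave 0.24 with an adjusted p of 0.610, so that no direction can be given for Slc11a2 as a gene. The probes match different transcripts or parts of the gene, and the exons they lie in were not determined here.

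**Figure D2:**
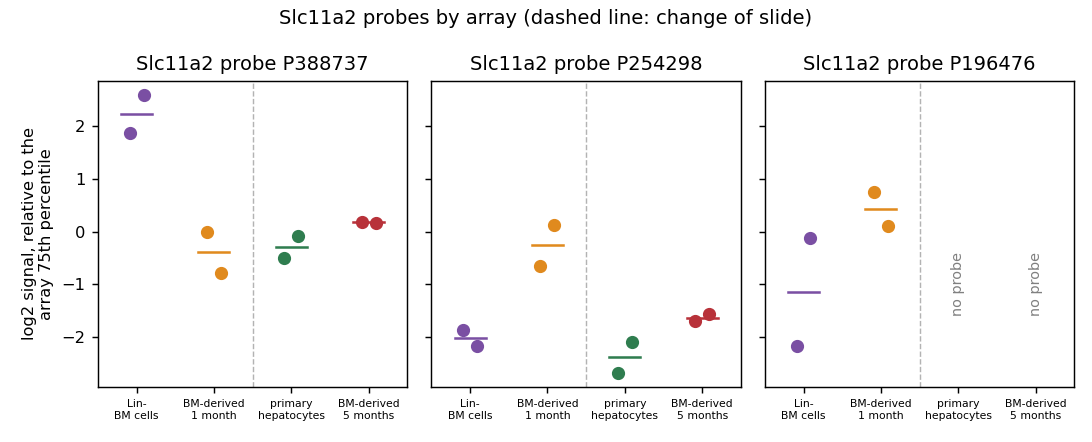
Log2 signal of the Slc11a2 probes relative to the 75th percentile of the array, with 1 panel per probe, points for arrays (2 per group) and lines for group means. Levels are comparable within a panel on 1 side of the dashed line. From Lin- BM cells to 1 month P388737 goes down while P254298 and P196476 go up, and from primary to 5-month hepatocytes both probes on that slide lie higher.

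Fth1 (chr19:9980600-9985111), the ferritin heavy chain, was at 8.17 and 8.52 in Lin- BM cells and at 9.56 and 9.68 at 1 month. It rose by 1.27 (SE 0.28, adjusted p = 0.0164), the smallest change of the 10, and with quantile normalization by 0.60 (adjusted p = 0.115). Its call was also lost without L3 (adjusted p = 0.0577), without B1 (0.0661) and without B2 (0.0809). Slc40a1 (chr1:45908070-45926532) was at 1.44 and 4.02 in Lin- BM cells and at 5.73 and 5.64 at 1 month. The Lin- arrays lay far apart, and both were below the 1-month arrays, which almost coincided. The rise of 2.96 (SE 0.86, adjusted p = 0.0381) had the highest p of the 10. It was 0.0634 after normexp background correction, 0.0510 with quantile normalization and 0.0556 without the filter on dim probes, and it reached 0.133 without B1 and 0.125 without B2. Atp7b (chr8:21992783-22060074), the copper pump, was at 0.15 and -0.12 and then at 2.67 and 2.23, a rise of 2.44 (SE 0.30, adjusted p = 0.00320).

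None of the 10 was called by limma between 5-month and primary hepatocytes, where 0.552% of 19934 genes were called (0.366% higher and 0.186% lower), and 1 of the 10, Hamp, had an unadjusted p under 0.05, as did 14.1% of all genes. The arrays of both groups did not overlap for 9 of the 10 by the brightest probe of each (6 higher and 3 lower at 5 months), against 47.9% of all genes (25.2% higher and 22.7% lower). The median change of the 10 was 0.21, and that of all genes was 0.04. An adjusted p above the threshold does not show that the cells were alike, and the intervals below give the differences that the arrays allowed.

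**Figure D3:**
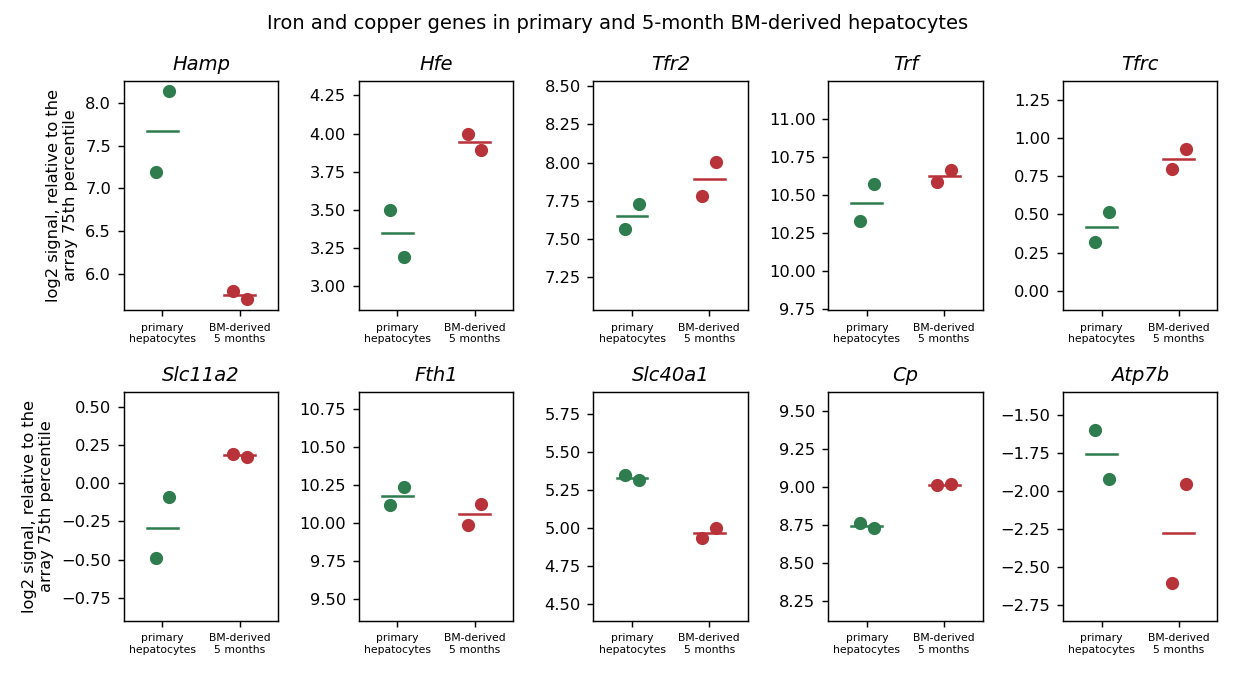
Log2 signal relative to the 75th percentile of the array for the 10 genes (1 panel each, own axis) in primary and 5-month BM-derived hepatocytes. Points are arrays (2 per group) and lines are group means. The axes span far less than those for 1 month, Hamp shows the widest gap with both 5-month arrays below both primary arrays, and Fth1 is the one gene whose groups overlap by its brightest probe.

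Hamp was at 7.20 and 8.13 in primary hepatocytes and at 5.80 and 5.70 at 5 months. Both 5-month arrays lay below both primary arrays. The difference was -1.92 (SE 0.37, 95% confidence interval -2.92 to -0.92, adjusted p = 0.159), and 2 arrays against 2 cannot give an exact permutation p below 0.333. Without H2 the difference was -2.39 and without H4 it was -1.45, and these fits called it (adjusted p = 0.0121 and 0.0491), while without G1 or G3 the adjusted p was 0.696 or 0.762. Each fit without H2 or H4 rested on a single primary array, which was assumed to vary like the 5-month pair. Hamp2 had 6.85 and 7.39 in primary hepatocytes and 5.68 and 5.68 at 5 months, a difference of -1.44 (SE 0.27, adjusted p = 0.147). Of the 2 primary arrays, H4 had the higher Hamp. Its summed Kupffer cell marker signal was also higher, 70.9 against 32.9 times the 75th percentile. The same held for the sums of the hepatocyte, erythroid, neutrophil, proliferation, sinusoidal endothelium and stellate cell markers. Those of the erythroid markers, for one, were 57.2 and 39.2. At 5 months the Kupffer cell sum was 126 and 128, with the lower Hamp. Whether Kupffer cells or any other cells had a part in these differences was not tested.

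The other 9 genes differed by at most 0.60. Hfe was at 3.50 and 3.19 in primary hepatocytes and at 4.0 and 3.89 at 5 months (0.60, interval from just below 0 to 1.20, adjusted p = 0.355). Tfr2 was at 7.57 and 7.73 and then at 7.78 and 8.00 (0.25, interval -0.33 to 0.83). For both sensors the 5-month arrays were the higher ones, by less than the interval could separate from 0. Tfrc, measured here by a probe with 10 spots whose SD within an array was 0.04 to 0.08, was at 0.32 and 0.52 and then at 0.80 and 0.93 (0.45, interval -0.12 to 1.01). Another Tfrc probe differed by 0.50 and its groups overlapped. A further Tfrc probe, between -6.61 and -4.52, was well above background on no array of this slide and was not tested. Slc11a2 was at -0.49 and -0.09 and then at 0.19 and 0.17 by P388737 (0.47, interval -0.16 to 1.11), and its P254298 differed by 0.75 in the same direction. On this slide the Slc11a2 probes did not conflict.

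Differences in the carrier, storage, export and copper genes went in both directions. Trf was at 10.33 and 10.57 and then at 10.59 and 10.66 (0.17, interval -0.40 to 0.75), and its other probe gave a difference of 0.17 too, with groups that overlapped. Cp was at 8.77 and 8.73 and then at 9.01 and 9.02 (0.27, interval -0.26 to 0.79). The Cp pairs were close and did not overlap. Fth1 was at 10.12 and 10.23 in primary hepatocytes and at 9.99 and 10.13 at 5 months (-0.12, interval -0.67 to 0.43). Slc40a1 was at 5.35 and 5.31 and then at 4.94 and 5.00 (-0.36, interval -0.89 to 0.17). Atp7b was at -1.60 and -1.92 and then at -2.60 and -1.95 (-0.52, interval -1.36 to 0.32), and G3 reached almost to H4.

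Probes of identical sequence on both designs allowed 5 of the 10 genes, Hamp, Tfrc, Slc11a2, Fth1 and Slc40a1, to be followed through the 4 groups on a scale set by the 75th percentile of 13991 shared sequences. These comparisons cross the slides. They also share arrays with those above, so that their values are given side by side only. Against Lin- BM cells, the median change of all 9217 genes on this scale was -0.29 for primary hepatocytes and -0.30 for 5 months.

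Hamp had shared-scale signals of -8.11 and -7.03 in Lin- BM cells, 2.69 and 5.98 at 1 month, 5.49 and 6.46 in primary hepatocytes and 4.17 and 4.03 at 5 months. All 6 hepatocyte arrays were far above the Lin- arrays, and the 1-month pair spanned the 5-month pair. Tfrc was at 0.29 and 1.43 in Lin- BM cells, -2.09 and -1.57 at 1 month, -1.39 and -1.15 in primary hepatocytes and -0.82 and -0.74 at 5 months. Its order was Lin- BM cells, 5 months, primary hepatocytes and 1 month, without overlap of neighbours. Slc40a1 was at 0.06 and 2.50, then 4.28 and 4.25 at 1 month, 3.64 and 3.64 in primary hepatocytes and 3.31 and 3.33 at 5 months. The 3 hepatocyte groups were each tight and apart from each other, and the Lin- arrays were the lowest and the most spread. Slc11a2 by P388737 was at 0.50 and 1.07, then -1.44 and -2.17 at 1 month, -2.20 and -1.76 in primary hepatocytes and -1.43 and -1.50 at 5 months, all below the Lin- arrays, and the 1-month arrays overlapped with both other hepatocyte groups. Fth1 was at 6.80 and 7.0, then 8.11 and 8.29 at 1 month, 8.41 and 8.56 in primary hepatocytes and 8.36 and 8.46 at 5 months, where the last 2 groups overlapped. No neighbours in these orders were called different among the hepatocyte groups.

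**Figure D4:**
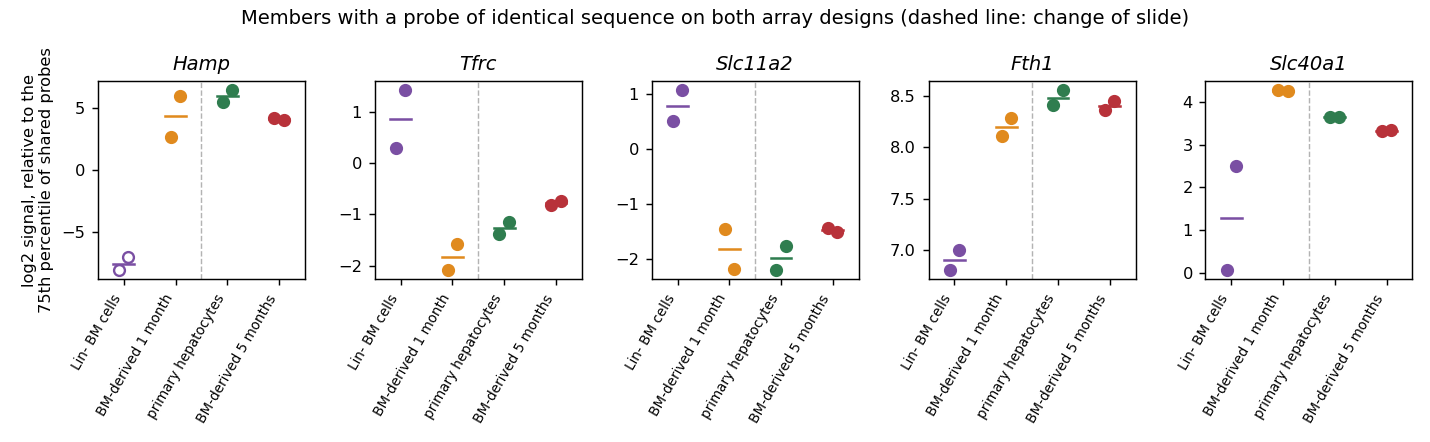
Log2 signal relative to the 75th percentile of the shared probes for the 5 genes with a probe of identical sequence on both designs, in the 4 groups. Points are arrays (2 per group), open points were not well above background, lines are group means and the dashed line marks the change of slide. Hamp, Fth1 and Slc40a1 are higher and Tfrc and Slc11a2 (by P388737) lower in all 3 hepatocyte groups than in Lin- BM cells.

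In primary hepatocytes all 5 were called against Lin- BM cells, 3 higher and 2 lower, where 67.4% of 9217 genes were called (29.3% higher and 38.1% lower). Hamp was at least 3669-fold higher, Slc40a1 and Fth1 rose by 2.36 and 1.59, and Slc11a2 and Tfrc fell by 2.77 and 2.13 (adjusted p at most 0.0219, which rose to 0.0710 for Slc40a1 without H2 and 0.0709 without H4). At 5 months all 5 were called against Lin- BM cells in the same directions, where 67.1% were called (29.3% higher and 37.8% lower). Hamp was at least 999.8-fold higher, Slc40a1 and Fth1 rose by 2.04 and 1.51, and Slc11a2 and Tfrc fell by 2.25 and 1.64 (adjusted p at most 0.0375). The Slc40a1 call at 5 months was lost without any one of the 6 hepatocyte arrays (adjusted p of 0.0553 to 0.120), and that of Tfrc without G1 (0.0511). The other Slc11a2 probe, P254298, was not called in either comparison, with differences of -0.61 and 0.18. With quantile normalization 3 of 5 were called at 5 months, Slc40a1 (1.83, adjusted p = 0.0664) and Fth1 (0.35, adjusted p = 0.239) being lost, and Fth1 was lost in primary hepatocytes (0.60, adjusted p = 0.0654).

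None of the 5 was called by limma between 1 month and primary hepatocytes, where 16.6% of genes were called and 32.3% had an unadjusted p under 0.05, or between 5 months and 1 month, where 17.1% were called and 34.7% had one. Tfrc at 5 months against 1 month was the one such gene among the 5. In either comparison 3 of the 5 did not overlap, against 64.6% and 71.7% of all genes. For 1 month against primary hepatocytes, Hamp differed by -1.64 (SE 1.01, adjusted p = 0.306, interval -4.07 to 0.78) and Slc40a1 by 0.62 (interval -1.06 to 2.30). The Hamp difference rested on B1, since it was 0.00 without that array and -3.29 without B2 (adjusted p = 0.0384). For 5 months against 1 month, Tfrc differed by 1.05 (SE 0.40, adjusted p = 0.116, interval 0.09 to 2.01) and Slc40a1 by -0.94 (SE 0.70, adjusted p = 0.380, interval -2.62 to 0.74). Tfrc and Slc40a1 were called in this comparison when either Lin- array was left out of the shared estimate of the spread (adjusted p of 0.0455 and 0.0466 for Tfrc, 0.0277 and 0.0286 for Slc40a1). The Slc11a2 probes conflicted again, as P254298 alone was higher at 1 month than in primary hepatocytes by 2.40 (adjusted p = 0.00987) and lower at 5 months than at 1 month by 1.60 (adjusted p = 0.0332), whereas P388737 differed by 0.17 and 0.34 (adjusted p = 0.764 and 0.517). These comparisons cannot be told apart from the change of slide.

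The wider pathway was described with 86 further genes in 4 lists. At 1 month 36 of the 80 tested were called higher and 6 lower, against 28.8% and 26.5% of all genes, with a median change of 0.89. At 5 months 0 of the 80 tested were called against primary hepatocytes by limma, where 0.552% of all genes were, so that nothing can be read from this count. Of the 20 tested genes of hepcidin regulation, 12 were higher and 0 lower at 1 month (28.8% and 26.5% of all genes were), with a median of 2.36. Tmprss6, which encodes the protease that cleaves hemojuvelin and restrains Hamp, rose from -5.57 and -3.36, of which the first was not well above background, to 6.30 and 6.14 (change 10.69, adjusted p = 7.01e-04). Hjv, hemojuvelin itself, a BMP co-receptor, rose from -4.09 and -6.67, of which the second was not, to 1.13 and 0.99 (6.44, adjusted p = 0.00408). Bmpr1a, a BMP receptor, rose by 4.59. Bmp6, the BMP ligand that answers to iron, rose by 2.83 (adjusted p = 0.0174) from -4.76 on L3, not well above background, and -3.76 on L4 to -2.18 and -0.67. Its call was lost without L3 (adjusted p = 0.0832) and without B2 (0.0606). Tmprss6, Hjv and Bmp6 passed the filter on dim probes only through the 1-month arrays, so that a fall could hardly have been found for them. They are among the 12 counted as higher, and their fitted sizes rest in part on a Lin- array below that limit. Id1 and Smad7, both targets of BMP signalling, were not called (differences of 0.62 and -1.44, adjusted p = 0.504 and 0.0542).

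Of the 18 tested genes of iron transport and storage, 6 were higher and 2 lower at 1 month, again against 28.8% and 26.5% of all genes, with a median of 0.58. Ftl1, the ferritin light chain, rose by 3.49 (adjusted p = 0.00115) and Slc39a14, a liver importer of iron not bound to transferrin, by 3.65 (adjusted p = 0.00163). Aco1, the iron regulatory protein that doubles as cytosolic aconitase, rose by 2.94 (adjusted p = 0.00502), whereas its partner Ireb2 differed by 0.59 (adjusted p = 0.251). Steap3, a ferrireductase of the erythroid endosome, differed by -0.79, was not called and was not well above background on either 1-month array. Heph, the ceruloplasmin homologue of the gut, could not be tested on this design. Among the pathway lists, Ltf, also a neutrophil marker, fell by 5.89 (adjusted p = 0.0194), with an SD of 2.96 between the Lin- arrays. Lox differed by -2.35. Both were named after their values were seen.

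Of the 28 genes of heme and iron-sulfur handling, 12 were higher and 2 lower at 1 month, with a median of 0.87. Of all genes, 28.8% were higher and 26.5% lower. The largest rises were in the scavengers of plasma heme and hemoglobin and their uptake. Hpx, hemopexin, rose from -3.74 and -3.63 to 9.06 and 7.86 (12.14, adjusted p = 1.47e-04), Hp, haptoglobin, by 5.78, Lrp1, a receptor for hemopexin complexes, by 5.26, and Slc46a1, a transporter of folate and heme, by 6.43. Ppox, an enzyme of heme synthesis, fell by 1.76 (adjusted p = 0.0405), a call that was kept in 1 of 4 fits with an array left out and lost without L4 (adjusted p = 0.109), B1 (0.0878) or B2 (0.167) and without the filter on dim probes. Flvcr1, a heme exporter, fell by 1.60 (adjusted p = 0.00881), which was 0.0535 without B2. Alas2, the erythroid form of the first enzyme of heme synthesis, rose by 1.73 (adjusted p = 0.0127). Its call was also kept in 1 of 4 such fits and lost without L3 (adjusted p = 0.0540), L4 (0.0552) or B2 (0.0555). Hmox1, which degrades heme, differed by 1.49 with Lin- arrays at -1.60 and 2.09, and neither it nor Slc25a37, the mitochondrial iron importer, was called.

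Of the 14 tested copper genes, 6 were higher and 2 lower at 1 month, with a median of 0.95. Among all genes, 28.8% were called higher and 26.5% lower. Slc31a1, the copper importer, rose by 3.71 (adjusted p = 0.00262), Ccs, the copper chaperone of superoxide dismutase, by 3.45, and Atox1, the chaperone that hands copper to Atp7a and Atp7b, by 1.16 (adjusted p = 0.0188). The Atox1 call was lost without L3 (adjusted p = 0.0638), B1 (0.0754) or B2 (0.0868) and with quantile normalization. Atp7a, the copper pump of most tissues other than liver, was at 1.84 and 1.48 in Lin- BM cells and at 0.26 and -0.38 at 1 month, a fall of 1.72 (adjusted p = 0.0126), while Atp7b rose. The Atp7a call was lost without L3 (adjusted p = 0.0568) or B2 (0.0621). Mt1, a metallothionein that binds copper and zinc, rose by 2.88 (adjusted p = 0.0407), a value that ranged from 1.71 to 4.05 with an array left out. Its call was kept in 1 of 4 such fits and lost without L3 (adjusted p = 0.0929), B1 (0.168) or B2 (0.0805), and also with normexp, with quantile normalization and without the filter on dim probes. Mt2 differed by 2.92 (adjusted p = 0.0755). Commd1, which acts with Atp7b in copper excretion, differed by 0.75 and was not called. Between the primary arrays the metallothioneins lay far apart, at 5.58 and 9.04 for Mt1 and 3.85 and 9.52 for Mt2 with H4 the higher, whereas the 5-month arrays were at 7.51 and 6.70 and at 6.84 and 5.69. Of the list genes named by rule, Bmp6 and Atox1 had the widest other differences at 5 months by the brightest probe of each. These were -1.42 (adjusted p = 0.344) and 1.20 (adjusted p = 0.134). Tmprss6 differed by 0.60 (adjusted p = 0.398) and Hjv by 0.03 (adjusted p = 0.984). The probes of Steap3 conflicted, with a difference of -0.04 by the brightest and of 4.09 by the other. Scara5, a ferritin receptor named after its values were seen, differed by -2.92 (adjusted p = 0.153).

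**Figure D5:**
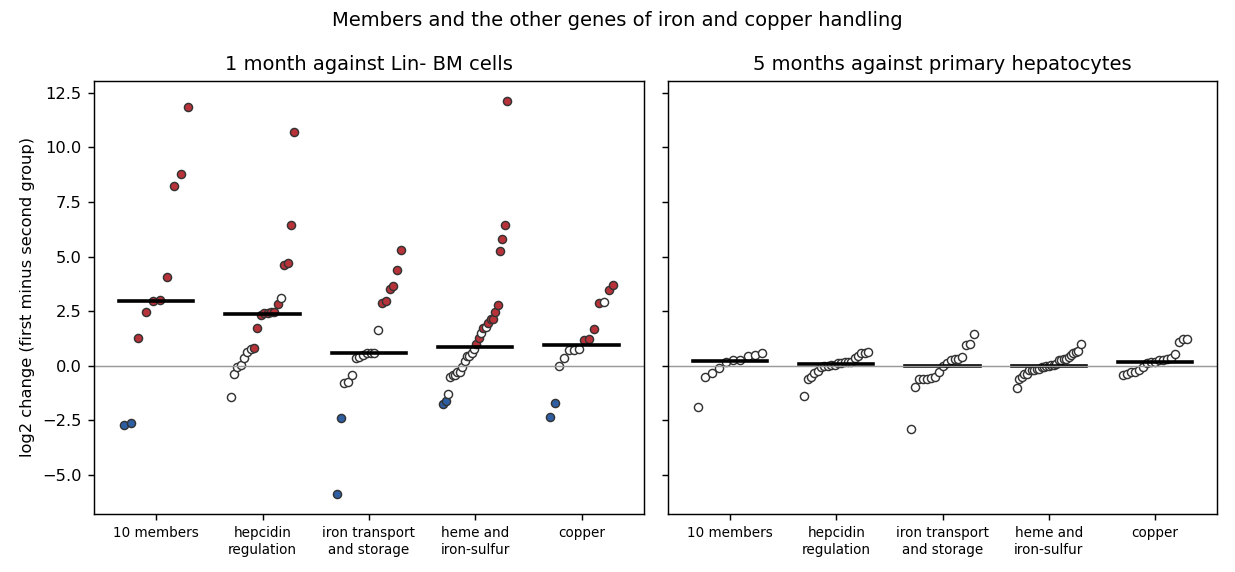
Log2 change of the 10 genes and of the other tested genes of 4 pathway lists, at 1 month against Lin- BM cells (left) and at 5 months against primary hepatocytes (right). Each point is a gene, filled red where called higher and blue where called lower, and bars are list medians. The 10 genes range from -2.72 to 11.87 at 1 month, and no gene of these lists was called at 5 months.

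Markers of other cells moved along with these genes. Of all genes tested, 28.8% were called higher and 26.5% lower at 1 month against Lin- BM cells. Markers not well above background in either of these groups passed the filter only through the other, so that their direction was fixed. Among them were Clec4f, Folr2, Vsig4 and Wnt2, which were not well above background on either Lin- array. From Lin- BM cells to 1 month, 9 of 10 tested erythroid markers fell, Hba-a1 by 6.65 and Slc4a1 by 5.80 (both named after their values were seen), and Alas2 alone rose, a call kept in 1 of 4 fits with an array left out. The summed erythroid signal was 250 and 391 times the 75th percentile in Lin- BM cells and 31.7 and 47.7 at 1 month, where Ermap, Gata1 and Rhag were among the markers not well above background. Most of the 1-month sum was Alas2, at log2 signals of 4.66 and 5.40, so that the sum does not describe the 9 markers that fell. Tfrc fell as these 9 did. Of 7 proliferation markers 6 fell as well, as did 8 of 8 neutrophil markers, and of 5 stellate cell markers 3 rose and 1 fell. Of 10 Kupffer cell markers 5 rose and 0 fell. Their summed signal was 3.77 and 6.96 in Lin- BM cells and 10.1 (B1) and 43.2 (B2) at 1 month, where B2 also had the higher Hamp. B2 was above B1 in the erythroid, stellate cell, endothelium and proliferation sums as well, and below it in the hepatocyte and neutrophil sums. Of 8 sinusoidal endothelium markers 6 rose and 1, Pecam1, fell. Bmp6 is made by that endothelium. At 5 months 0 of these markers were called against primary hepatocytes by limma, where 0.552% of all genes were, so that nothing can be read from this count. The median difference of all genes was 0.04. Markers of one list were measured on the same arrays and are not independent of each other. All 9 tested Kupffer cell markers had the higher mean at 5 months, with a median difference of 1.01, as did 4 of 4 proliferation markers (1.17), 4 of 5 neutrophil markers (0.82), 3 of 4 stellate cell markers (0.61), 4 of 7 erythroid markers (0.14) and 5 of 8 sinusoidal endothelium markers (0.16). The summed neutrophil signal was 80.4 on G1 and 15.5 on G3, against 13.2 and 24.9 in primary hepatocytes. The part of these cells in the differences of the iron and copper genes was not tested.

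Genes with the most similar profile were listed for the 5 genes with shared probes, by the root mean square difference of log2 signals, each centred on its mean, over the 8 arrays and 9208 genes. Hamp, whose signal ranged over 14.57, was nearest to Hpd (0.93), Hgd (0.94) and Apol7a (0.95), of which Hpd and Hgd encode enzymes of tyrosine breakdown. Tfrc, with a range of 3.52, was nearest to H1f4 (0.25), Cep76 (0.26) and 1810030O07Rik (0.28). Slc40a1 was nearest to Ryk (0.20), Ptk2 (0.31) and Prnp (0.33), Slc11a2 by P388737 to Ankrd13b (0.21), Haus1 (0.22) and Exosc6 (0.24), and Fth1 to Cox7b (0.09), Mfsd1 (0.10) and Atp5b (0.10). Likeness over 4 groups on 2 slides follows the groups and is given as a description.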

How the data were processed

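RNA labelled with Cy3 was hybridised to 8 single-colour arrays of 2 Agilent designs. Per the file headers, Agilent Feature Extraction 11.5.1.1 gave the deposited spot intensity, background-subtracted, and flags. The deposited log2 values of the authors, shifted to the 75th percentile, differed from log2 intensity by a single constant on each array (99.8% or more of probes within 0.02), and served as an alternative. The number of arrays limits the precision.

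Control spots and outlier flags were left out, spots of a probe were averaged, and the 75th percentile of each array was subtracted from log2 processed intensity. A probe was kept if it was well above background on each array of some group, and the brightest stood for a gene. Genes were named through RefSeq accessions, symbols or synonyms, otherwise by the name in the file. limma 3.58.1 in R 4.3.3 was fitted to the 4 arrays of a slide, and across slides to 8 arrays with 13991 probes of identical sequence, with Benjamini-Hochberg adjustment over all genes and the limits 0.05 (adjusted p) and 0.6 (size of the log2 change) for a call. A fold against a group below background used the lowest signal well above background, or the signal of the probe itself where higher. The procedure was tested on simulated data.

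The 10 genes, the pathway lists and the marker lists (hepatocyte, Kupffer cell, sinusoidal endothelium, stellate cell, erythroid, neutrophil, proliferation) were chosen with earlier results of these data known. Named from the pathway lists were 21 genes whatever their values, and in each comparison within a slide up to 5 rises and 5 falls, the largest among genes that every array of the slide measured above background. Alternatives were normexp correction (offset 50), quantile normalization, other filters on dim probes, the mean of probes, each probe alone, the deposited log2 values, the percentile over all probes, the methods' t-test, and leaving out each array.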

Additional observations from a re-analysis of the deposited data

How the results depend on the processing

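No paired analysis was possible because no pair of the groups compared shares 2 replicate numbers, and a block over all 8 arrays, which would leave 1 residual degree of freedom, was not run. At 1 month against Lin- BM cells, 10 of the 10 genes were called, 5 of the 5 testable with shared probes, 3 by the methods' t-test after Benjamini-Hochberg adjustment, and 7 to 10 with 1 array left out. Against primary hepatocytes at 5 months it was 0, or 0 to 1 with 1 array left out. For primary hepatocytes against Lin- BM cells 5 became 3 by the t-test unadjusted and 2 adjusted. For 5 months against Lin- BM cells 5 became 3 with quantile normalization, 3 by the t-test at either threshold and 3 to 5 with 1 array left out. For 1 month against primary hepatocytes 0 became 1 with the mean of probes, with each probe alone and by the t-test unadjusted, and 0 to 1 with 1 array left out. For 5 months against 1 month 0 became 1 with each probe alone and by the t-test unadjusted, and 0 to 2 with 1 array left out.

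Over all genes, the 15777 calls at 1 month against Lin- BM cells became 26463 without the filter, 5779 with shared probes (fewer genes tested), 4568 by the adjusted t-test and 9900 to 12513 with 1 array left out. The 110 calls at 5 months against primary hepatocytes became 38 without the filter, 47 with probes above background on all arrays, 176 with each probe alone, 1364 by the t-test unadjusted and 0 adjusted, and 0 to 1397 with 1 array left out. The 6214 calls for primary hepatocytes against Lin- BM cells became 4127 above background on all arrays and 2516 by the adjusted t-test, which gave 3336 in place of 6187 at 5 months. The 1534 calls for 1 month against primary hepatocytes became 2413 with normexp, 4045 without the filter, 902 above background on all arrays, 2 by the adjusted t-test and 587 to 1828 with 1 array left out. The 1574 calls for 5 months against 1 month became 2687 with normexp, 14 by the adjusted t-test and 343 to 1719 with 1 array left out.

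The direction of Slc11a2 turned with the mean of probes at 1 month against Lin- BM cells (0.24) and at 5 months against 1 month (-0.63), and at 1 month against primary hepatocytes with the deposited log2 values (-0.11) and the percentile over all probes (-0.10). With 1 array left out the last 2 comparisons ranged from -0.020 to 0.70 and from -0.19 to 0.53 for Slc11a2, and from -1.88 to 1.41 and from -3.29 to 0.0040 for Hamp. Steap3 turned at 1 month with normexp (0.40). At 5 months against primary hepatocytes, Trf turned with quantile normalization (-0.069), Hjv with normexp (-0.0102), and Mt1 (0.12) and Steap3 (2.03) with the mean of probes. With 1 array left out, the 1-month range was -0.35 to 3.33 for Hmox1, -1.60 to 0.031 for Steap3 and -0.28 to 1.53 for Id1. At 5 months it was -0.060 to 0.64 for Slc39a14, -0.19 to 0.12 for Steap3, -0.018 to 0.61 for Heph, -0.43 to 0.49 for Hjv, -0.0028 to 0.33 for Id1, -1.93 to 1.52 for Mt1, -3.26 to 2.42 for Mt2, -0.52 to 0.16 for Slc25a37, -0.30 to 0.40 for Hmox1 and -0.020 to 0.077 for Bmpr1a. The cause was not tested.

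The share of higher calls at 1 month against Lin- BM cells was 52.2%, and 62.8% with normexp and 71.9% without the filter. For 1 month against primary hepatocytes it was 69.4%, and 76.5% with normexp and 84.8% without the filter. There it was 53.0% with quantile normalization and 49.9% with the percentile over all probes. For 5 months against 1 month it was 34.1%, and 24.3% without the filter and 53.2% with the deposited log2 values. The percentile over all probes moved the median change of all genes for primary hepatocytes against Lin- BM cells from -0.29 to -0.05. Weak signals were limited by background, most of all at 1 month.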
